A study of Mus musculus with 4 samples.

Results

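The genes described here are 35 genes of glycolysis and of the cellular response to low oxygen, taken by symbol from the raw gene counts of mouse embryonic fibroblasts (MEFs). These primary cultures are the connective tissue cells that grow out when an embryo is minced and plated. They were 35 of the 54532 gene IDs counted. Aldoa matched 2 IDs, and the one with more counts was used (the other had 3 to 21 counts). CPM means counts per scaled library size, the level used throughout except in the filter on low counts. Of the 35 members, 34 were among the 13306 genes that reached a CPM, taken before scaling, of 1 or more in 2 or more libraries. Ankrd37, which encodes an ankyrin repeat protein induced by hypoxia, did not reach that level, with 9 to 25 counts per library. The list was set by gene function, with no measured value in its rule, but it was chosen with earlier results of these data known. It holds 22 genes of glucose uptake, glycolysis and lactate export and 13 genes of oxygen sensing and hypoxia response.

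RNA sequencing covered 4 genotypes of primary C57BL/6 MEFs at passage 4, isolated from embryos of 12.5 to 13.5 days, with 1 library each. The genotypes were wild type (called WT), Zfp871-/-, Trp53-/- and the combination Trp53-/-; Zfp871-/- (called the double null here). By the series' design text, cells of both Trp53-null genotypes came from crosses of double heterozygotes, Zfp871-/- cells from crosses of Zfp871 heterozygotes, and WT cells from either kind of cross. Which cross gave the sequenced WT cells, how many embryos lie behind each culture and how the alleles were made were not given in the sources used here. Zfp871 encodes a zinc finger protein and Trp53 encodes p53, the transcription factor that halts division or triggers death of damaged cells. The title of the series links Zfp871 loss to the axis of p53 and its ubiquitin ligase Mdm2. Both deletions are constitutive, so no library measures an acute loss.

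Glycolysis splits glucose into pyruvate, and cells that divide fast turn much of that pyruvate into lactate and export it. When oxygen falls, prolyl hydroxylases of the Egln family stop marking the HIF alpha subunits for degradation. HIF then binds DNA with Arnt at short elements with the core ACGTG or GCGTG, and it raises glucose transporters, most glycolytic enzymes, lactate export and genes for angiogenesis. Because HIF is set mainly through the stability of its protein, the Hif1a and Epas1 messages measured here are not a measure of HIF activity. p53 and Myc also act on several of these genes, and MEFs are usually grown in room air with abundant glucose.

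On the other strand these cores read CACGT or CACGC. Both words were searched in the 250 bases before each RefSeq transcript start (assembly GRCm38.p6), a window that was found for 32 of the 35 members. Slc2a3, Epas1 and Ndrg1 had no entry. A word was present in 29 of the 32 members (90.6%), against 41.5% of 27025 genes with a window. A gene counted if any of its windows held a word. By window the share was 77.1% of the members' 48 windows, against 38.6% of all 32851 windows. ACGTG alone was present in 19 members (59.4%), against 18.5% of all genes. The members' windows also held more CpG sites, with a median of 14 against 6 in all windows, and had a median GC content of 60.4% against 52.4%. Both words hold a CpG, and the part of base composition in the share was not tested. The word CACGTG counts as a match on both strands, and it is also the site bound by Myc. A match describes these letters and does not show that a factor binds there.

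The stretches below are printed for the lactate exporter, hexokinase, phosphoglycerate kinase and lactate dehydrogenase genes that were higher in Zfp871-/- than in WT, and for Adm and Egln3, hypoxia genes with other patterns. Capitals mark the matches, and positions count from the transcript start. The Slc16a3 stretch is chr11:120949020-120949066 on the plus strand (-47 to -1), and 14 of its bases lie in an exon of another transcript. The Hk2 stretch is chr6:82774482-82774700 on the minus strand (-246 to -28) and the Pgk1 stretch is chrX:106186930-106186993 on the plus strand (-170 to -107). The Ldha stretch is chr7:46845639-46845794 on the plus strand (-165 to -10), the Adm stretch is chr7:110627547-110627627 on the plus strand (-110 to -30) and the Egln3 stretch is chr12:54204079-54204123 on the minus strand (-249 to -205). These 5 stretches overlap no annotated exon on the same strand, and exons on the other strand were not checked.
Slc16a3: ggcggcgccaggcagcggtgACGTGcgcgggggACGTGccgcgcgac
Hk2: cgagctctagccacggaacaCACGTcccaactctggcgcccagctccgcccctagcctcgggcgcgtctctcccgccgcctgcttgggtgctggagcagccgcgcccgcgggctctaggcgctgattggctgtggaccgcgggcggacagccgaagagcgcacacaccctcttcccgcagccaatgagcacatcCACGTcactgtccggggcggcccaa
Pgk1: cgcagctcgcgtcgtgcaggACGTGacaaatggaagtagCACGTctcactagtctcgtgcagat
Ldha: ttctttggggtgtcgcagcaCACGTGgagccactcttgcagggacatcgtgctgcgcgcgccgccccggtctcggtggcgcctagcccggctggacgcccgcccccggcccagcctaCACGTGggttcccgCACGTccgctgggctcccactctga
Adm: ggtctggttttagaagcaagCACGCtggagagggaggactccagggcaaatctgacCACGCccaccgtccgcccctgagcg
Egln3: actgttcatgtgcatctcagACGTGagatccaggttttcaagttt
These stretches were picked as examples, and a link between the words and the levels was not tested over the members. Pfkl, Gapdh and Eno1, also higher in Zfp871-/- than in WT, held only GCGTG, Gpi1 and Tpi1 held neither word, and Hif1a, whose interval for that pair included 0, held ACGTG 3 times.

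The libraries held 19303167 to 22324599 counts. The deletions check in part: Zfp871 had 660 and 784 counts in the libraries labelled Zfp871 wild type and 327 and 307 in those labelled null, and Trp53 had 2383 and 2413 counts against 1233 and 1382. Reads therefore remain on both deleted genes, and gene counts do not show which exons they come from. Fibroblast markers (10 of 10 past the filter) summed to 47130, 47910, 36000 and 32620 CPM in WT, Zfp871-/-, Trp53-/- and the double null, which is the order used for all sets of 4 values from here on. Markers of macrophages (15 of 15 detected in every library) summed to 82.7, 94.6, 1162 and 1049 CPM, so they were high in both Trp53-null libraries. Cartilage markers summed to 802, 85.6, 38.9 and 47.2 CPM. The WT library stood apart there with 11633 counts of Col2a1, the main cartilage collagen, against 558, 25 and 50. Markers at 0 were Matn1 in WT, Cnmd in Zfp871-/-, Col9a1, Matn1 and Cnmd in Trp53-/-, and Col9a1, Matn1 and Hapln1 in the double null, of 12 listed. Muscle, epithelial, endothelial and erythroid markers summed to at most 24.6 CPM in any library, and Xist was expressed in all 4 (9152 to 14475 counts). With 1 library per genotype, a difference between a pair compares libraries and not conditions, has no replicate check, and cannot be told apart from embryo, culture or cell mixture. In bulk RNA, fewer cells of a type and less RNA per cell cannot be told apart either.

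The Zfp871-/- library had higher glycolytic messages than the WT library, from glucose entry to lactate exit, while the hypoxia genes outside glycolysis showed no common direction. Of the 22 glycolytic genes 18 were higher and 4 lower in Zfp871-/- than in WT, with a median log2 ratio of 0.45. Of the 12 hypoxia response genes tested 7 were higher and 5 lower, with a median of 0.05 (-0.00 when libraries were scaled by total counts). The median over all 13306 genes was near 0. The largest differences were at Slc16a3 and Pfkfb4, both higher, and at Adm, lower.

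A 2-fold difference was reached by few members. In Zfp871-/- against WT, 2 members were at least 2-fold higher, where 3.52% of all genes were, and 1 was at least 2-fold lower, where 3.98% were. These counts are near the background, and most glycolytic genes differed by less than 2-fold. Over the 34 members 25 (73.5%) were higher, against 49.5% of all genes. The 95% counting interval of the ratio lay above 0 for 21 members (61.8%), against 27.7% of all genes tested, and below 0 for 4 (11.8%), against 27.3%. Many members have high counts and therefore narrow intervals. That interval is an exact binomial one for both counts. It covers the error of counting alone, and reads that carry no molecular identifier are not independent molecules.

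Slc16a3 (ENSMUSG00000025161, chr11:120948480-120960868, mm10) encodes MCT4, the exporter through which glycolytic cells release lactate. It stood at 21.1, 56.3, 33.0 and 46.6 CPM, from 399, 1062, 721 and 1084 counts. WT was the lowest library and both Zfp871-null libraries were above both libraries with Zfp871. The ratio of Zfp871-/- to WT was 2.66-fold (log2 1.41, interval 1.25 to 1.58), and that of the double null to Trp53-/- was 1.41-fold (log2 0.50, interval 0.36 to 0.64).

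For glucose uptake the results turn on Slc2a1. This gene encodes the transporter GLUT1 that carries basal glucose uptake of fibroblasts, and it stood at 65.2, 108, 76.7 and 86.9 CPM, again lowest in WT. Its log2 ratio was 0.73 (interval 0.63 to 0.84) in Zfp871-/- against WT and 0.18 (0.09 to 0.27) in the double null against Trp53-/-. Slc2a3, the high-affinity transporter GLUT3, had only 109 to 161 counts, was lowest in Trp53-/-, and its interval for Zfp871-/- against WT included 0 (log2 0.19, -0.17 to 0.57).

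The 16 enzymes from hexokinase to lactate dehydrogenase took 0.869%, 1.11%, 0.951% and 1.07% of all counts. The exact binomial 95% intervals of these shares did not overlap, with 0.865% to 0.873% in WT and 1.10% to 1.11% in Zfp871-/-. Of the 16 enzymes 13 were higher in Zfp871-/- than in WT (median log2 0.40) and 15 exceeded their Trp53-/- level in the double null (median 0.17), and both counts were the same with total counts or DESeq2 size factors. Of all genes tested, 49.5% were higher in the first of these pairs and 50.9% in the second. WT thus had the lowest share and Zfp871-/- the highest.

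Among the early steps, Hk2, the inducible hexokinase that traps glucose in the cell, stood at 37.2, 60.2, 42.4 and 52.2 CPM (log2 0.69 in Zfp871-/- against WT, interval 0.56 to 0.83). Hk1, the constitutive hexokinase, stood at 151, 159, 116 and 122 CPM and differed by only 0.07 on the log2 scale in that pair (-0.00 to 0.15). Gpi1, which turns glucose 6-phosphate into fructose 6-phosphate, was at 258, 364, 247 and 290 CPM. Its log2 ratio was 0.50 in Zfp871-/- against WT.

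Phosphofructokinase commits sugar to glycolysis, and its subunits went in different directions. Pfkl, the liver-type subunit, was at 97.5, 158, 112 and 131 CPM (log2 0.70 in Zfp871-/- against WT, interval 0.62 to 0.78). Pfkm, the muscle-type subunit, was at 41.6, 32.5, 28.6 and 28.7 CPM, with WT the highest (log2 -0.36, interval -0.51 to -0.20). Pfkp, the platelet-type subunit, was at 54.6, 64.3, 61.7 and 63.1 CPM. Part of Pfkp (5.58% of its exon bases) is antisense to the well expressed gene Pitrm1, and no strand setting is stated, so its reads are uncertain to that extent.

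In the middle of the pathway, Aldoa, the main aldolase, was at 737, 985, 806 and 848 CPM, and Tpi1, which interconverts the triose phosphates that aldolase releases, at 387, 504, 404 and 456 CPM. Gapdh, which makes the first NADH of the pathway, was at 1809, 2239, 1760 and 2080 CPM. Gapdh is often taken as a reference gene, and here its log2 ratio was 0.31 in Zfp871-/- against WT and 0.24 in the double null against Trp53-/-. Pgk1, the X-linked kinase that makes the first ATP, was at 562, 815, 712 and 728 CPM (log2 0.54 and 0.03 in those pairs). Each of these 4 genes was higher in Zfp871-/- than in WT, while in the pair without p53 the log2 ratio of Aldoa was 0.07.

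In the last steps, Pgam1, a phosphoglycerate mutase, was at 172, 241, 212 and 242 CPM. Eno1, the main enolase, was at 1356, 1933, 1558 and 1812 CPM (log2 0.51 in Zfp871-/- against WT and 0.22 in the double null against Trp53-/-). Pkm, the pyruvate kinase gene, was at 2245, 2746, 2054 and 2293 CPM, and gene counts do not separate its M1 and M2 transcripts. Ldha, which reduces pyruvate to lactate, was at 949, 1419, 999 and 1100 CPM (log2 0.58, interval 0.55 to 0.61, and 0.14, interval 0.11 to 0.16). Eno2, the neuronal enolase, ran the other way at 22.4, 13.9, 20.8 and 15.2 CPM. It was lower in both Zfp871-null libraries, with log2 ratios of -0.69 (-0.92 to -0.46) and -0.45 (-0.66 to -0.25). Aldoc, the brain-type aldolase, had only 18 to 59 counts.

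The regulators of flux did not move as a block. Pdk1, the kinase that blocks pyruvate dehydrogenase and so keeps pyruvate out of mitochondria, was at 26.1, 36.9, 29.3 and 31.4 CPM (log2 0.50 in Zfp871-/- against WT). Pfkfb3, which makes the phosphofructokinase activator fructose 2,6-bisphosphate, was the same in WT and Zfp871-/- at 24.9 CPM each (log2 -0.00, interval -0.19 to 0.19). Pfkfb4 (ENSMUSG00000025648, chr9:108991778-109032228), a related enzyme with a more balanced kinase and phosphatase activity, was at 8.58, 20.4, 18.8 and 15.0 CPM from 162, 385, 410 and 348 counts. WT alone was low. The log2 ratio was 1.24 (0.98 to 1.52) in Zfp871-/- against WT and -0.32 (-0.54 to -0.12) in the double null against Trp53-/-.

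**Figure D1:**
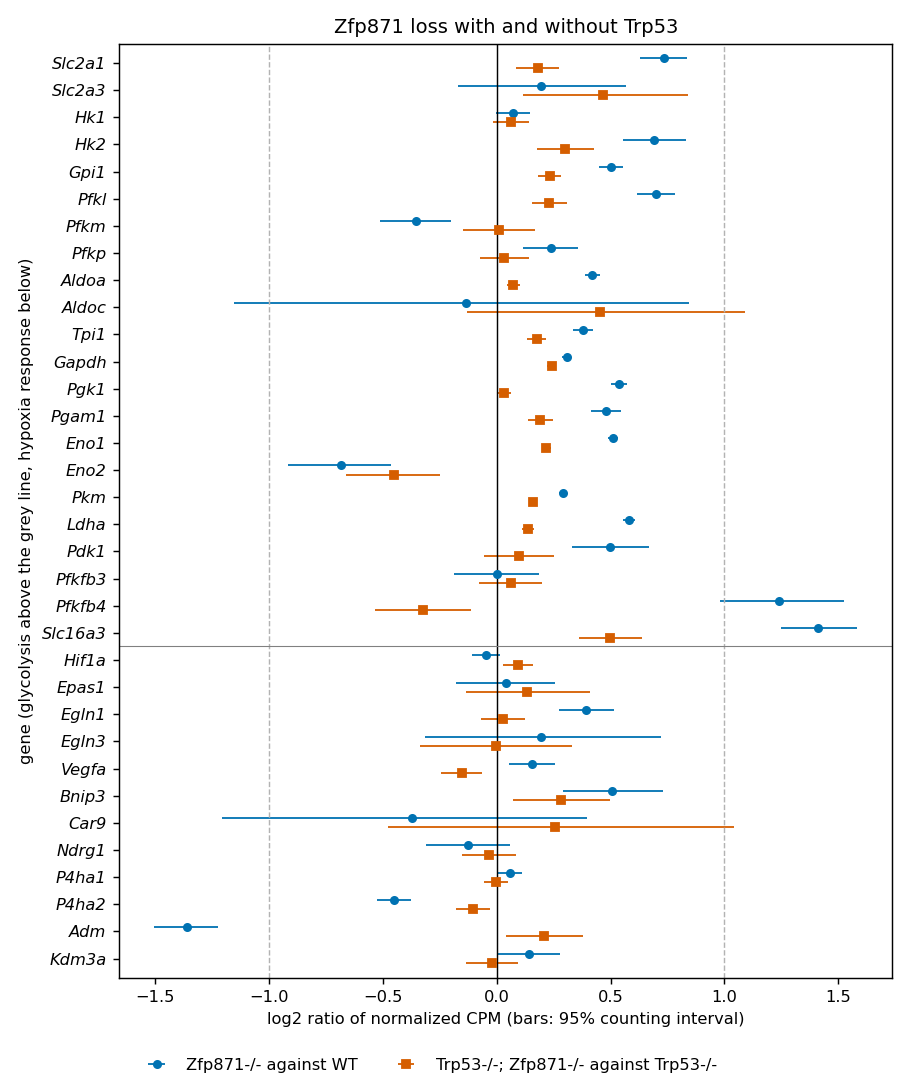
Log2 ratio of normalized CPM for each tested member in Zfp871-/- against WT and in the double null against Trp53-/-, with glycolytic genes above the grey line, hypoxia response genes below it, and whiskers for 95% counting intervals. Most glycolytic genes lie to the right of 0 in both pairs (medians 0.45 and 0.17), and Pfkfb4 and Adm lie on opposite sides.

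In Zfp871-/- against WT the hypoxia response genes outside glycolysis differed in mixed directions. Their median log2 ratio was smaller than that of the glycolytic genes (0.05 against 0.45), but Adm reached -1.36. The 13 genes took 0.0984%, 0.0898%, 0.0917% and 0.0917% of all counts, with WT the highest. Hif1a, the widely expressed HIF alpha subunit, was at 219, 212, 162 and 172 CPM, and Epas1, which encodes HIF-2 alpha, at 18.3, 18.8, 9.52 and 10.5 CPM. Neither differed beyond counting error between Zfp871-/- and WT (log2 -0.05 and 0.04). Egln1, the main oxygen-sensing prolyl hydroxylase, was at 53.4, 70.1, 76.7 and 78.2 CPM, with a log2 ratio of 0.39 in that pair.

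Among the hypoxia targets, Bnip3, a mitophagy receptor of the mitochondrial membrane, was at 15.6, 22.2, 14.9 and 18.2 CPM. It was the only one of the 12 with an interval above 0 in both pairs (log2 0.51, 0.29 to 0.73, and 0.28, 0.07 to 0.50). Vegfa, the endothelial growth factor, was at 82.2, 91.5, 93.5 and 84.0 CPM. Kdm3a, a histone H3 lysine demethylase, was at 45.0, 49.6, 57.5 and 56.7 CPM. P4ha1 and P4ha2 encode catalytic subunits of collagen prolyl 4-hydroxylase and were at 287, 299, 251 and 250 CPM and at 174, 128, 131 and 122 CPM. P4ha2 was highest in WT (log2 -0.45 in Zfp871-/- against WT, -0.53 to -0.38). Car9, the membrane carbonic anhydrase that strongly hypoxic cells express, was near the filter in all 4 libraries with 25 to 36 counts.

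Adm (ENSMUSG00000030790, chr7:110627661-110629820) encodes adrenomedullin, a vasodilator peptide and a frequent hypoxia marker. It was at 78.2, 30.4, 23.6 and 27.3 CPM, from 1476, 573, 516 and 634 counts. WT alone was high, and the other 3 libraries lay close together. The log2 ratio was -1.36 (-1.50 to -1.22) in Zfp871-/- against WT and 0.21 (0.04 to 0.38) in the double null against Trp53-/-. The summed cartilage markers were also highest in WT (802 CPM against 38.9 to 85.6), and their part in the Adm value was not tested.

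The pair of Trp53-null libraries shares no library with the pair above, and its cartilage markers summed to 38.9 and 47.2 CPM. In the double null against Trp53-/-, 0 members were at least 2-fold higher, where 0.819% of all genes were, and 0 were at least 2-fold lower, where 1.01% were. The median log2 ratio of the members was 0.12, and 26 of 34 (76.5%) were higher, against 50.9% of all genes. Of the 22 glycolytic genes 20 were higher (median 0.17) and 2 lower, namely Eno2 and Pfkfb4. Of the 12 hypoxia response genes 6 were higher and 6 lower (median 0.01). Across both pairs 20 of the 34 members (58.8%) were higher with Zfp871 loss each time, against 27.3% of all genes tested. Another 3 (8.82%, against 26.9%) were lower each time and 11 (32.4%, against 45.7%) had opposite signs.

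In the additive edgeR quasi-likelihood test, which takes 2 libraries per level of each factor, no member passed for Zfp871 loss after Benjamini-Hochberg adjustment at 0.05. No gene of the 13306 did either (0%, rose or fell). With 1 residual degree of freedom, the test takes as error whatever differs between the backgrounds. Slc2a1, Hk2, Gpi1, Pfkl, Eno2 and Slc16a3 had an unadjusted p under 0.05, which is 6 of 34 members (17.6%) against 3.83% of all genes. The smallest adjusted p of a member was 0.874. limma-voom called 0 members and 0 genes, and the DESeq2 Wald test called 0 members, with 3 genes higher and 5 lower in all. The differences with Zfp871 loss are therefore descriptions of these 4 libraries.

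**Figure D2:**
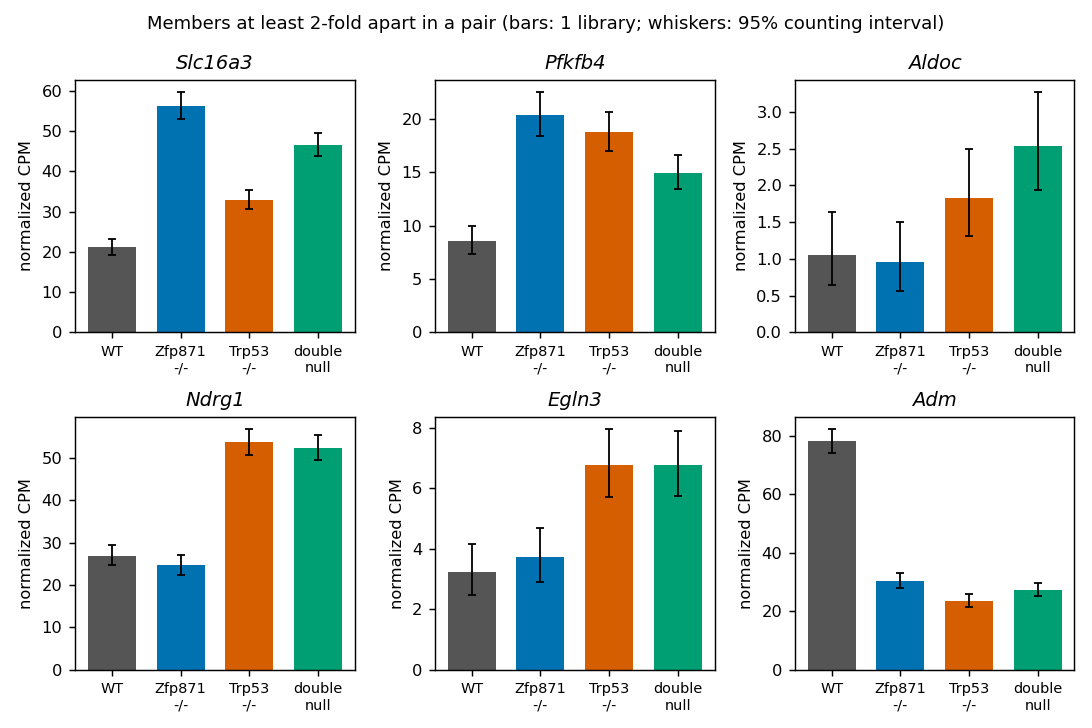
Normalized CPM of the 6 members that reached 2-fold in a pair, 1 bar per library starting at 0, with 95% counting intervals as whiskers. WT is the lowest bar for Slc16a3 (21.1 CPM) and Pfkfb4 (8.58) and the highest for Adm (78.2), and both Trp53-null bars are above both others for Aldoc, Ndrg1 and Egln3.

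Compared per transcript length, the members spanned a wide range of levels. Pkm had 446, 550, 409 and 458 FPKM (the deposited values, read as fragments relative to exon length and library size) and Gapdh 435, 542, 424 and 503 FPKM. Ldha, Eno1, Aldoa, Pgk1 and Tpi1 lay at 140 to 429 FPKM. The hexokinases, Slc2a1 and Slc16a3 were much lower, with Slc16a3 at 3.95, 10.6, 6.17 and 8.77 FPKM. At the lower end Car9, Aldoc and Ankrd37 stayed below 1 FPKM in every library.

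The levels of the members can also be read by library. Of the 34 tested members 20 had their highest normalized level in Zfp871-/-, among them Slc2a1, Hk2, Aldoa, Gapdh, Eno1, Pkm and Ldha. WT was the lowest library for 17 members. The same counts were not taken over all genes, so they have no background beside them, and all members come from the same 4 libraries. WT was the highest for 6, which were Pfkm, Eno2, Hif1a, Car9, P4ha2 and Adm. For Car9 the intervals of all 5 pairs included 0, so its order is not resolved at this depth. Mitosis genes (12 genes) summed to 798, 1236, 1802 and 1926 CPM, so WT was lowest there too but Zfp871-/- was not highest. Their part in the glycolytic levels was not tested.

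With p53 lost, Ndrg1 and Egln3 were higher and Epas1, Hif1a and Hk1 lower, whether or not Zfp871 was present. In the additive quasi-likelihood test of edgeR, adjusted by Benjamini-Hochberg, 1 member rose with Trp53 loss, where 5.01% of all genes did, and 0 fell, where 4.31% did. An unadjusted p under 0.05 was reached by 7 of 34 members (20.6%), against 31.0% of all genes. The DESeq2 Wald test called 1 member that rose and 0 that fell. limma-voom, and the edgeR test with DESeq2 size factors or with no filter on low counts, each called 1 member that fell, Epas1.

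The member that rose was Ndrg1 (ENSMUSG00000005125, chr15:66929318-66969640), a stress-responsive gene induced by hypoxia and known as a metastasis suppressor. It had 509, 465, 1173 and 1218 counts, or 27.0, 24.7, 53.7 and 52.4 CPM. Both Trp53-null libraries were about 2-fold above both others, and the 2 values within each background were close. The log2 change was 1.04 (SE 0.12, Benjamini-Hochberg adjusted p = 0.0254 in the quasi-likelihood test of edgeR), and it passed under all 5 other settings of the test (adjusted p 0.00103 to 0.0260). Macrophage markers moved with the same libraries, since 15 of 15 rose with Trp53 loss and summed to 82.7 and 94.6 against 1162 and 1049 CPM. Mitosis genes did so too, with 7 of 12 passing. Their part in the Ndrg1 level was not tested.

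Other oxygen-sensing members were split by p53 status without passing the test. Epas1 had 345 and 354 counts with p53 and 208 and 243 without it. Its log2 change was -0.89 (SE 0.17) with an adjusted p of 0.0514 by the quasi-likelihood test of edgeR, adjusted by Benjamini-Hochberg. Hif1a was at 219 and 212 CPM with p53 and at 162 and 172 without it (log2 change -0.37, SE 0.11, adjusted p = 0.112 by the same edgeR quasi-likelihood test). Egln3 (ENSMUSG00000035105, chr12:54178981-54203860), a prolyl hydroxylase that hypoxia itself induces, had 61, 70, 148 and 157 counts. Its log2 ratio was 1.05 (0.63 to 1.52) in Trp53-/- against WT and 0.85 (0.45 to 1.29) in the double null against Zfp871-/-. Thus both HIF alpha messages were lower, and Egln3 and Ndrg1 higher, in both libraries without p53.

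Among the glycolytic genes, Pfkfb3 was at 24.9, 24.9, 37.6 and 39.2 CPM and Hk1 at 151, 159, 116 and 122 CPM. Of the glycolytic members these had the smallest p-values. Their log2 changes were 0.62 (SE 0.13, adjusted p = 0.0587) and -0.39 (SE 0.10, adjusted p = 0.0930) in the quasi-likelihood test of edgeR, adjusted by Benjamini-Hochberg. Pfkfb3 passed with scaling by total counts (adjusted p = 0.0468 in edgeR) and with no filter on low counts (adjusted p = 0.0389). Aldoc (ENSMUSG00000017390, chr11:78322968-78327781) had 20, 18, 40 and 59 counts, with both Trp53-null libraries above both others. Its log2 ratio was 0.74 (-0.02 to 1.64) in Trp53-/- against WT and 1.33 (0.63 to 2.26) in the double null against Zfp871-/-.

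The 2 pairs that measure Trp53 loss are given side by side. In Trp53-/- against WT, 2 members were at least 2-fold higher (Pfkfb4 and Egln3), where 8.9% of all genes were, and 1 was at least 2-fold lower (Adm), where 8.88% were. In the double null against Zfp871-/-, 2 members were at least 2-fold higher (Aldoc and Ndrg1), where 5.51% of all genes were, and 0 were at least 2-fold lower, where 6.33% were. The median log2 ratio of the members was 0.15 in the first pair and -0.16 in the second, and those pairs share no library. Of the 34 members 7 (20.6%) were higher with Trp53 loss in both pairs, against 37.4% of all genes tested, and 12 (35.3%, against 37.2%) were lower in both. The signs were opposite for 15 (44.1%, against 25.3%).

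Many of the opposite signs were at core enzymes. Of the 16 core enzymes 10 were higher in Trp53-/- than in WT (median log2 0.10), where 50.08% of all genes were. In the double null 13 stood below their Zfp871-/- level (median -0.17), a pair in which 50.15% of all genes were higher. With scaling by total counts the core enzymes gave 12 higher (median 0.19) in the first pair and 10 lower (median -0.03) in the second. That scaling shifts the median of all genes by 0.09 and 0.14. Ldha had log2 ratios of 0.07 and -0.37 in these pairs, Slc2a1 0.24 and -0.32, Pgk1 0.34 and -0.16, and Slc16a3 0.64 and -0.27. Each gene stood lowest in WT and highest in Zfp871-/-, with both Trp53-null libraries between. No interaction could be tested with 1 library per genotype, so the difference between the backgrounds was not tested.

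**Figure D3:**
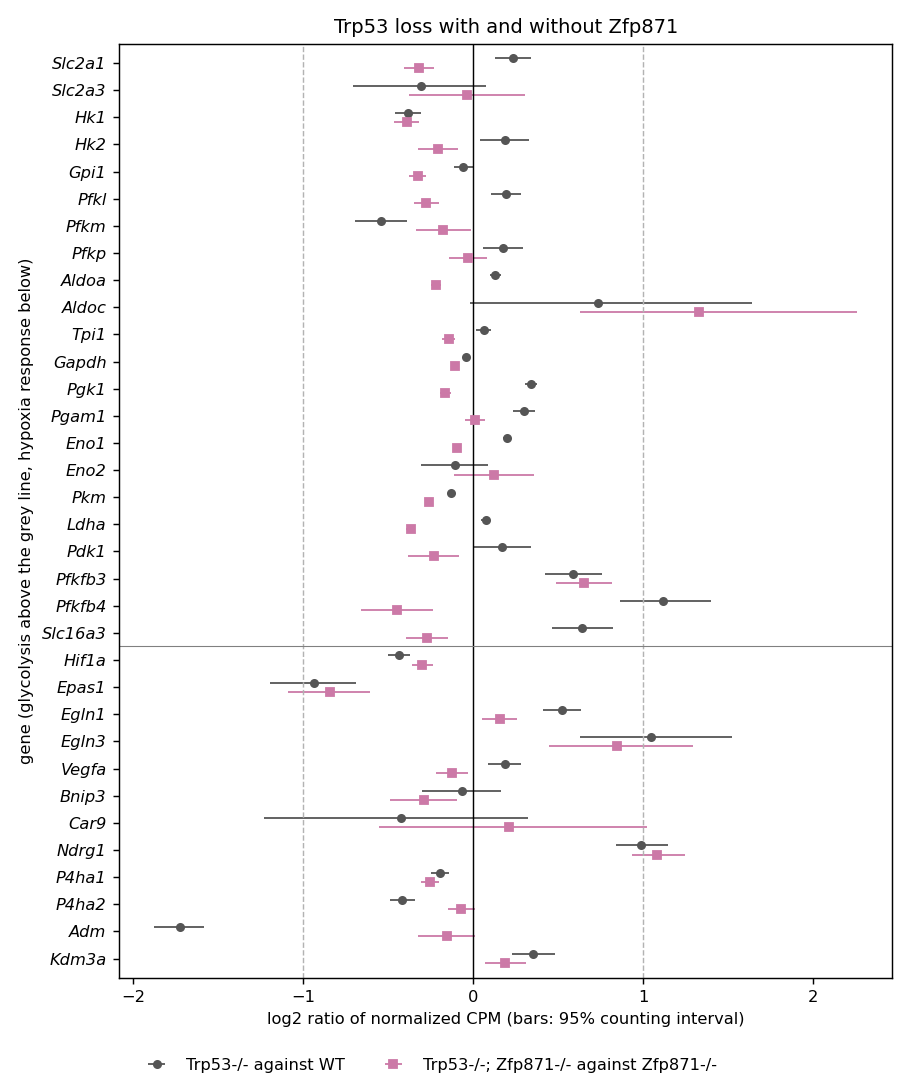
Log2 ratio of normalized CPM for each tested member in Trp53-/- against WT and in the double null against Zfp871-/-, laid out as in the plot of Zfp871 loss with 95% counting intervals. Ndrg1 and Egln3 lie right of 0 and Epas1, Hif1a and Hk1 left of 0 in both pairs, while of the 16 core enzymes 6 lie left of 0 in the first pair and 13 (10 with scaling by total counts) in the second.

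The last pair sets the loss of both genes against WT. In the double null against WT, 3 members were at least 2-fold higher (Aldoc, Slc16a3 and Egln3), where 8.79% of all genes were, and 1 was at least 2-fold lower (Adm), where 9.23% were. The median log2 ratio of the members was 0.21, with 25 higher (73.5%, against 49.9% of all genes) and 9 lower. For Slc16a3 the log2 ratio was 1.14 (0.98 to 1.31), for Ldha 0.21 and for Pkm 0.03 (0.01 to 0.05). Epas1 stood at -0.80 and Pfkm at -0.53, against -0.93 and -0.54 in Trp53-/- against WT. This pair uses the same WT library as 2 pairs above, so its values are not separate evidence of their directions.

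Many glycolytic steps are served by more than one gene, and the mix of isozymes can be read only per transcript length. Here the same FPKM levels were expressed as shares of each family. Hk2 made up 26.0%, 35.1%, 34.3% and 38.1% of the Hk1 and Hk2 sum, so WT had the smallest share. The family sum itself was 23.9, 28.8, 20.6 and 23.0 FPKM. Against WT, Zfp871-/- differed mainly in Hk2 (6.20 and 10.1 FPKM), and Trp53-/- mainly in Hk1 (17.6 and 13.6 FPKM).

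Among phosphofructokinase subunits Pfkl held 46.9%, 62.0%, 56.0% and 59.6% and Pfkm 40.0%, 25.4%, 28.6% and 26.1%. Pfkp held 13.1%, 12.6%, 15.4% and 14.3%. By counts with no length correction Pfkm held 21.5% in WT (exact binomial 95% interval 20.1% to 22.8%) and 12.7% in Zfp871-/- (11.8% to 13.7%). The size of the share thus depends on the length correction, and the order with WT highest does not.

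Other families were dominated by 1 gene. Aldoa held at least 99.7% of the aldolase pair in every library, Eno1 98.2% to 99.2% of the enolase pair, and Slc2a1 95.6% to 97.0% of the transporter pair. Hif1a held 91.5%, 91.0%, 93.9% and 93.7% of the HIF alpha pair. Ldhb, whose subunit favours the reaction from lactate to pyruvate, held 6.88%, 3.23%, 1.65% and 1.38% of the lactate dehydrogenase pair. Ldha accordingly approached the whole of it. The Ldhb share was highest in WT and lowest in the double null, but the order of the Trp53-null libraries is not resolved. By counts with no length correction, their exact binomial intervals overlapped, at 0.678% to 0.916% in Trp53-/- and 0.562% to 0.763% in the double null.

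Regulatory families were more evenly shared. Pdk1 held 10.9%, 19.3%, 16.0% and 18.3% of the 4 pyruvate dehydrogenase kinases, and Pdk3 was the largest at 63.7% to 73.2%. Pdk2 held 15.5%, 8.21%, 5.95% and 4.33%. Pfkfb4 held 25.8%, 43.9%, 33.6% and 27.9% of its family, with Pfkfb3 at 34.5% in Zfp871-/-. By counts with no length correction Pfkfb4 (35.4%) was below Pfkfb3 (43.2%) in that library, and the Pdk1 share of WT was 25.6%. Among the prolyl hydroxylases, Egln2 was the largest with p53 (60.8% and 54.5%) and Egln1 without it (50.4% and 48.8%). By counts both held 48.7% in Zfp871-/-. Egln3 held 2.96% and 3.04% with p53 and 6.01% and 5.69% without it. P4ha1 held 49.8% to 54.6% of the collagen hydroxylase subunits.

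**Figure D4:**
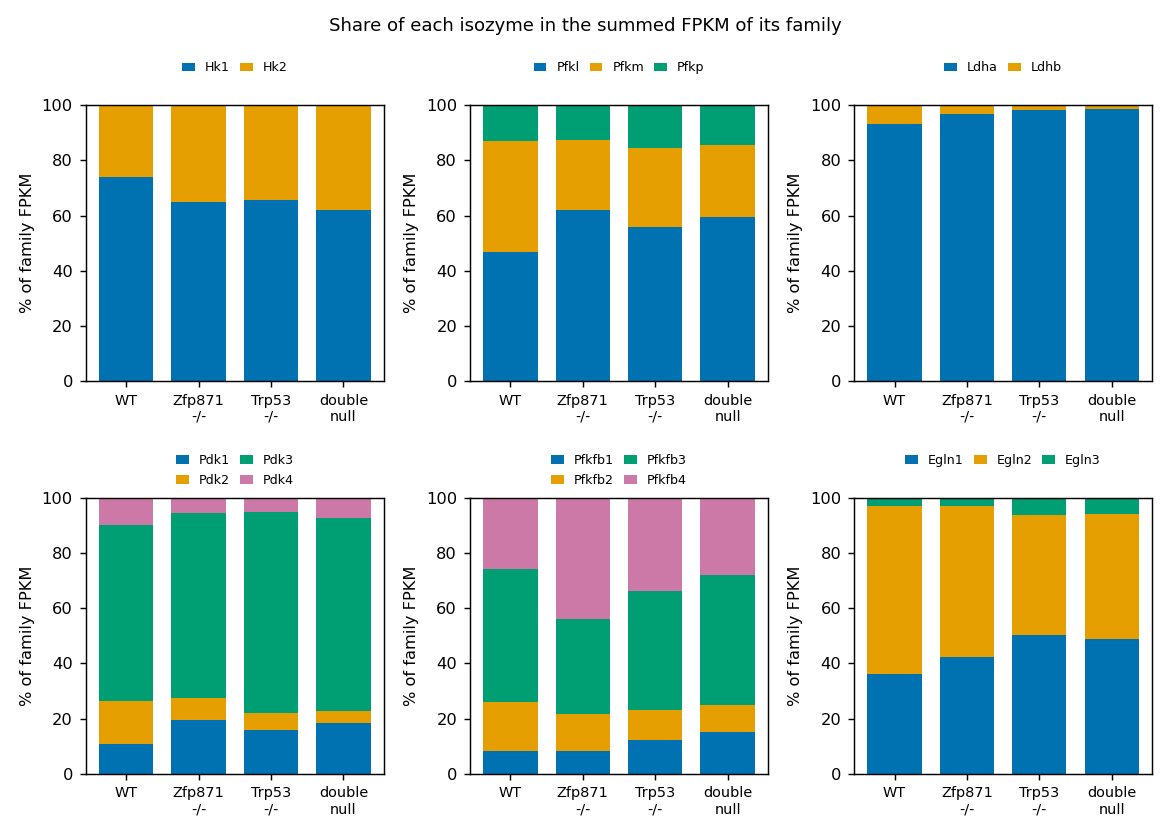
Share of each gene in the summed FPKM of its family, as stacked bars from 0 to 100% for the 4 libraries. Across the 6 families drawn, the Hk2, Pfkl and Pdk1 shares are smallest in WT, the Pfkm share is largest in WT, and the Egln1 share is larger in both Trp53-null libraries.

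Genes around these pathways were taken from lists of isozymes, neighbouring pathways and hypoxia targets. With Zfp871 loss 0 genes of any of these lists passed the edgeR quasi-likelihood test. Among other glycolytic isozymes and transporters (14 of 20 past the filter), 3 rose and 1 fell with Trp53 loss, where 5.01% and 4.31% of all genes did. Hk3, a hexokinase of blood cells, rose by 4.28 on the log2 scale (10, 12, 266 and 251 counts, edgeR adjusted p = 0.0132), in the same libraries in which 15 of 15 macrophage markers rose. Ldhb fell by 1.85 on the log2 scale (628, 424, 174 and 169 counts, edgeR adjusted p = 0.0223). The others were Bpgm, which makes 2,3-bisphosphoglycerate (log2 0.72), and Slc16a1, the lactate transporter MCT1 (490, 577, 1119 and 1503 counts, log2 1.03). Both are named after their values were seen. The monocarboxylate transporter Slc16a7 had 241 counts in WT and 67, 93 and 131 in the other libraries, and Pgam2, the muscle mutase, had 86 against 34, 28 and 31.

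Genes that pass pyruvate to the mitochondria (13 of 13 tested) had medians of -0.25 in Zfp871-/- against WT and -0.18 in Trp53-/- against WT. These pairs share the WT library. Without it, the medians were -0.01 in the double null against Trp53-/- and 0.13 in the double null against Zfp871-/-. Pcx, pyruvate carboxylase, fell with Trp53 loss (log2 change -1.36, 592, 502, 263 and 244 counts, edgeR adjusted p = 0.0236). Pdk2 had 284, 120, 97 and 70 counts and Pdk4 200, 89, 89 and 131, so both kinases were highest in WT, opposite to Pdk1. Pdp1, a phosphatase that reactivates pyruvate dehydrogenase, was also highest in WT with 439 counts against 152, 305 and 312.

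Of the 8 pentose phosphate genes, H6pd, an enzyme of the endoplasmic reticulum, fell with Trp53 loss (log2 change -0.56, edgeR adjusted p = 0.0482). The list had medians of -0.33 in Trp53-/- against WT and -0.31 in the double null against Zfp871-/-. Pgls and Pgd, enzymes of the oxidative branch, had log2 ratios of -0.53 and -0.41 in the first of these pairs. Rpia, which belongs to the other branch, had a ratio of 0.33. Of the 11 glycogen genes tested 0 passed the edgeR test, and the member with the largest ratio, Ppp1r3c, a glycogen-targeting phosphatase subunit, had only 31, 18, 93 and 28 counts.

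Oxygen-sensing partners (12 of 13 tested) had medians from -0.09 to 0.08 over the 5 pairs. Arnt2, a neuronal relative of the HIF partner Arnt, fell with Trp53 loss (592, 637, 338 and 377 counts, log2 change -1.04, edgeR adjusted p = 0.0301). Among 30 other hypoxia targets 2 rose and 4 fell with Trp53 loss, where 5.01% and 4.31% of all genes did. Cxcr4, a chemokine receptor also carried by leukocytes, rose by 2.22 on the log2 scale from 14 and 17 counts to 80 and 94, in the libraries with high macrophage markers. Ddit4, an inhibitor of mTORC1 that p53 also induces, fell by 1.44 on the log2 scale (1294, 1178, 579 and 512 counts, edgeR adjusted p = 0.0159). Stc1, a secreted glycoprotein, fell by 1.34 on the log2 scale. Car12, a relative of Car9, had 112 counts in WT against 54, 32 and 46. The other 3, named after their values were seen, were Tfrc, which rose, and the collagen-modifying enzymes Plod2 and Lox, which fell.

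Genes through which p53 is known to act on glucose use were also split. Sesn2, a stress-induced inhibitor of mTORC1, fell with Trp53 loss (2088, 2232, 900 and 839 counts, log2 change -1.57, edgeR adjusted p = 0.0148). Gls2, a glutaminase, had 12, 57, 54 and 54 counts, with WT alone low, the pattern also seen for Pfkfb4. Tigar, which lowers fructose 2,6-bisphosphate, had log2 ratios of 0.29 and 0.19 in the Zfp871 pairs and 0.16 and 0.06 in the Trp53 pairs. It lies outside the rule for named genes and was added after its values were seen. Myc, the transcription factor that drives many glycolytic genes, rose with Trp53 loss (937, 1194, 2334 and 2991 counts, log2 change 1.06, edgeR adjusted p = 0.0205), and Arrdc4, an arrestin gene induced by glucose, fell (log2 change -0.98). Txnip, the related arrestin that limits glucose uptake, had 1822, 2342, 1851 and 2087 counts.

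Sequence copies had little weight in these counts. Gapdh has 43 annotated copies in the genome at 95% identity over at least 300 bases, which took at most 0.311% of the reads of the gene and its copies. For Pgam1 and Bnip3 the share reached 1.07% and 1.21%. Annotated overlaps were larger for Bnip3 (22.3% of its exon bases antisense to Gm45507, which had 0 counts) and for Pkm (15.3% shared with Gm49759 on the same strand, which had 795 to 1381 counts against at least 42382 for Pkm). Ankrd37, with 9 to 25 counts, was antisense to Lrp2bp over 22.7% (4 to 12 counts) and to Ufsp2 over 3.70% (901 to 1051 counts). Car9, with 25 to 36 counts, was antisense to Gm12454 over 9.29% (11 to 16 counts). With no strand setting stated, the low counts of both are uncertain to that extent.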

How the data were processed

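RNA sequencing of 4 MEF libraries was analysed from the authors' deposited raw counts per Ensembl gene, for which the submitters' processing notes name fastp, STAR, featureCounts and mm10. Their versions, the strand setting and the gene annotation were not given in the sources used here. A second deposited set of values, 1 per library, has no unit in its header and was read as FPKM, because counts divided by it follow 1 factor per library and, for 95.0% of 10902 genes, the GENCODE M21 exon length within 0.1%. GENCODE M21 also gave symbols and coordinates. Genes were kept at a CPM of at least 1, by unscaled library size, in at least 2 libraries. Their counts were then scaled by TMM in edgeR 4.0.16 (R 4.3.3). Pairs were compared as log2 ratios of CPM (prior count 2, threshold 2-fold). The additive design Trp53 + Zfp871 was tested by edgeR quasi-likelihood with Benjamini-Hochberg adjustment at 0.05, checked on simulated counts. Only genes past it are said to have risen or fallen. DESeq2 1.42.0, limma 3.58.1 and other scalings, filters and priors were alternatives. Copies were found with BLAST 2.17.0. Members and lists were chosen with earlier results of these data known. Values are given for members that reached 2-fold or passed the test. From each other list, genes were named mostly among up to 4 with the largest ratio, and not all of these are described. Mycn, which had the largest absolute log2 ratio (1.725) of the list that holds Myc, is among those left out, as are Sesn1 and Rrad.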

Additional observations from a re-analysis of the deposited data

Results flagged for a closer look

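For 2 members the losses went in opposite directions in the 2 backgrounds by more than 1 on the log2 scale. For Pfkfb4 the log2 ratio of Zfp871 loss was 1.24 with p53 and -0.32 without it, a difference of -1.56, and the ratio of Trp53 loss was 1.12 with Zfp871 and -0.45 without it, again a difference of -1.56, since both come from the same 4 values. For Adm the ratio of Zfp871 loss was -1.36 with p53 and 0.21 without it, a difference of 1.57. With 1 library per genotype the difference was not tested. In both genes WT stood apart from the other 3 libraries, which lay within a narrower range.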

How the results depend on the processing

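With a 1.5-fold in place of a 2-fold threshold, members past the threshold in Zfp871-/- against WT were 5 higher (9.27% of all genes) and 2 lower (9.6%). Trp53-/- against WT gave 6 higher (15.9%) and 2 lower (16.1%). For the double null, the comparison with Zfp871-/- gave 4 higher (12.2%) and 1 lower (12.7%), and that with WT gave 6 higher (16.3%) and 2 lower (17%). The median of the members in the double null against Zfp871-/- was -0.0177 with scaling by total counts, which shifts the median of all genes by 0.14. In the test of Trp53 loss 2 members (Ndrg1 and Pfkfb3) rose with total counts and 2 with no filter on low counts. Epas1 was the 1 member that fell with DESeq2 size factors, with no filter and with limma-voom. The causes were not tested. The log2 ratios of the 6 members that reached 2-fold kept their direction in all 5 pairs under the scalings, filter and prior tried, except Egln3 in the double null against Trp53-/-, which was near 0 (-0.0033, and 0.0048 with no filter), and 29 of 30 moved by less than their counting interval with total counts. The other was Slc16a3 in the double null against Zfp871-/-, at -0.13. No replicate could be left out, since each genotype had 1 library. Depth limits Aldoc, Car9, Ankrd37 and Egln3, which had at most 157 counts in any library.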
